A study of Homo sapiens with 6 samples.

Results

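The endothelin system is described here in T3M4 cells, an established human pancreatic ductal adenocarcinoma line, through the 7 genes that encode its ligands, receptors and converting enzymes. The members were picked by symbol (EDN1, EDN2, EDN3, EDNRA, EDNRB, ECE1 and ECE2) from the 58735 genes of the deposited count table, and all 7 were found. The list was drawn up with the difference of these genes between the groups already known, EDN1 above all, so their differences are given as a description and nothing is rested on them. Total RNA was sequenced from 3 libraries with the genotype label MUC16 knockout, titled T3M4M16, and from 3 libraries labelled MUC16 expressing, titled T3M4WT and called WT below. Both groups were untreated cells of the same line, and whether the knockout is 1 clone or a pool, and how it was made, is not given in the sources used here. The labels do not state whether the 3 libraries of each kind were grown separately, so p-values cover the spread between libraries, possibly a technical one. Library totals ran from 19088927 to 28612621 counts.

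MUC16 itself went against the labels. Its row held 292, 504 and 323 counts in the libraries labelled knockout and 98, 144 and 90 counts in those labelled WT, so every library labelled knockout was above every library labelled WT. Its level averaged 15.2 ± 4.29 CPM in the libraries labelled knockout and 4.37 ± 0.866 CPM in those labelled WT (SD, n = 3 each). CPM are counts scaled to library size, here with TMM (trimmed mean of M-values) factors. Each direction below therefore compares the libraries labelled knockout with those labelled WT by their labels alone, and MUC16 protein was not measured. Whether the labels of the groups were exchanged was not tested, and an exchange would turn the sign of every difference given. Epithelial carcinoma markers were abundant, as the label of the line implies: EPCAM, KRT7, KRT8, KRT18, KRT19, CDH1 and CLDN4 all passed the filter, with a summed level of 5610 to 5880 CPM in the libraries labelled knockout and 3590 to 3670 CPM in those labelled WT.

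Endothelins are short secreted peptides that act close to where they are made. Each is cut from a larger precursor, first by furin-type proteases into a form called big endothelin and then by an endothelin-converting enzyme into the mature peptide. The mature peptides bind endothelin receptor A or endothelin receptor B, both of which are G protein-coupled receptors that raise intracellular calcium. Endothelin-1 is best known as a vasoconstrictor of the blood vessel wall, and in carcinomas it has been studied as a growth and stroma-activating signal.

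The 3 ligand genes encode closely related peptides, and their coding stretches are shown because the results turn on which ligand was read. Each stretch is the 21 codons of the mature peptide, 63 bases, in exon 2 of 5 (GENCODE v29, GRCh38): chr6:12292433-12292495 on the plus strand for EDN1, chr1:41484061-41484123 on the minus strand for EDN2 and chr20:59301646-59301708 on the plus strand for EDN3. They are written 5′ to 3′ along the coding strand, and capitals mark the bases that the 3 genes do not all share.
EDN1: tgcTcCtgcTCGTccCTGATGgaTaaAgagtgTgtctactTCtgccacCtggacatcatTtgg
EDN2: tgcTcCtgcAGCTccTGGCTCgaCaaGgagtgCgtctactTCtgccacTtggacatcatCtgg
EDN3: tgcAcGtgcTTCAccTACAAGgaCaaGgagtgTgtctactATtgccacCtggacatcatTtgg
EDN1 and EDN2 were identical at 51 of these 63 bases, EDN1 and EDN3 at 50, and all 3 at 44. Even so, the longest exact run shared by any annotated transcripts was 15 bases between EDN1 and EDN2 and 21 bases between EDN1 and EDN3. It was 13 bases between EDNRA and EDNRB and 20 bases between ECE1 and ECE2, so no pair of these relatives shares more than a short run. No annotated gene overlaps EDN1, EDN2 or EDN3.

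EDN1, the gene of endothelin-1 (ENSG00000078401, GRCh38 chromosome 6, 12290363 to 12297194, plus strand), held most of the ligand counts in every library, and it was far lower in the libraries labelled knockout. Its row held 97, 155 and 130 counts in the libraries labelled knockout and 881, 685 and 626 counts in those labelled WT. Scaled for depth, these were 4.96, 6.03 and 4.44 CPM in the libraries labelled knockout and 33.4, 25.5 and 28.1 CPM in those labelled WT. All 3 libraries labelled knockout lay far below all 3 labelled WT, and no library stood apart within its group. The means were 5.14 ± 0.811 CPM in the libraries labelled knockout and 28.98 ± 4.07 CPM in those labelled WT (SD, n = 3 each), a 5.63-fold difference. The fitted log2 fold change was -2.50 ± 0.12 (SE, edgeR), with a 95% interval of -2.74 to -2.26, and the authors' deposited table gives -2.51. It ranked 7 from the lowest among the 16655 genes tested and 6 from the lowest among the 13429 protein-coding genes tested. By the size of the change in either direction it ranked 125 among all genes tested and 108 among the protein-coding ones. In bulk RNA, fewer cells that make a transcript and less of it per cell cannot be told apart.

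**Figure D1:**
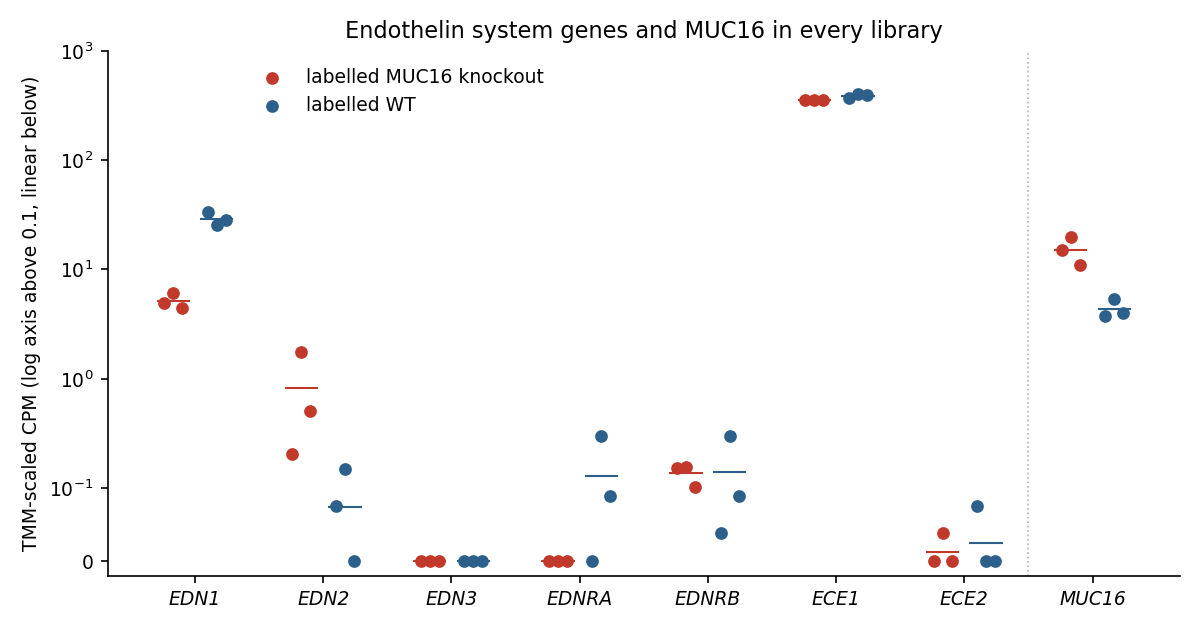
Level of each endothelin gene and of MUC16 in every library (TMM-scaled CPM, log axis above 0.1 and linear below), with libraries labelled MUC16 knockout in red on the left of each pair and libraries labelled WT in blue. Points are libraries and bars are group means. EDN1 sits at 4.44 to 6.03 CPM in the libraries labelled knockout and 25.5 to 33.4 CPM in those labelled WT, ECE1 is high in all 6 libraries, and EDN3 is at 0 throughout.

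The filter on low counts left 2 of the 7 members in the test, EDN1 and ECE1, and both were called lower in the libraries labelled knockout. By the same rule 52.6% of all genes tested were called in either direction and 25.9% were called lower and 26.7% higher. Both members also had groups that did not overlap, as did 59.0% of all genes tested, 29.0% with the libraries labelled knockout below those labelled WT. Because this contrast was known when the members were chosen, nothing is read from these shares.

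**Figure D2:**
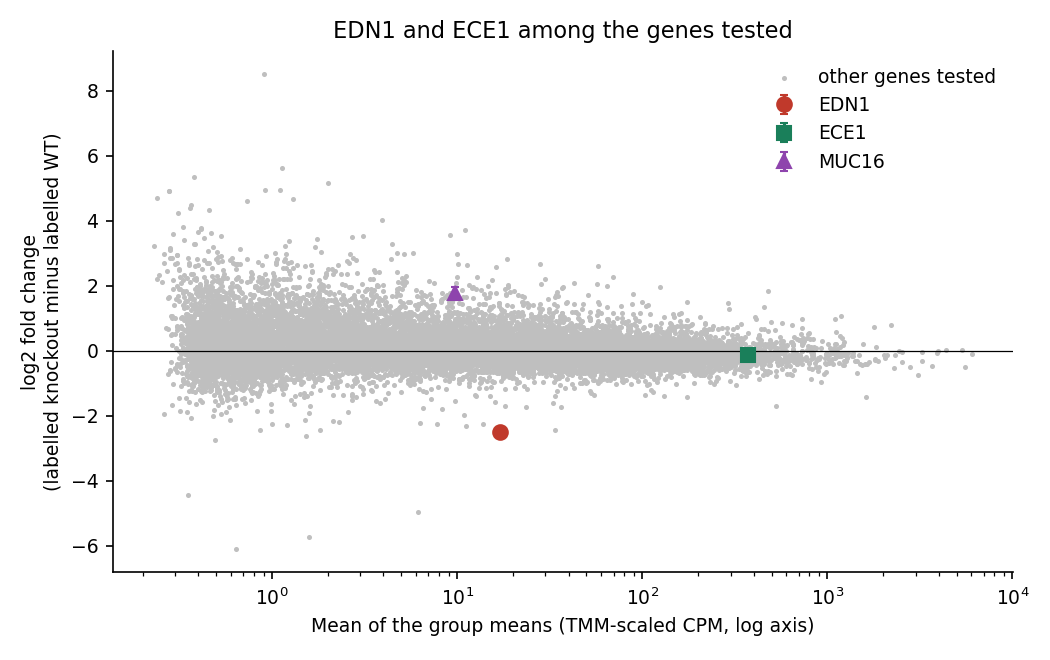
Log2 fold change (libraries labelled knockout minus those labelled WT) of every gene tested against its mean level (TMM-scaled CPM, log axis), with the SE as error bars on the named genes. EDN1, at -2.50, lies at the lower edge of the genes of its level, ECE1, at -0.12, lies inside the cloud, and MUC16, at 1.79, lies near its upper edge.

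GENCODE v29 gives EDN1 a single transcript, so by that annotation its row mixes no isoforms. The RefSeq promoter table gives EDN1 starts at 12288019, 12290014 and 12290361, and a row for the whole gene does not tell them apart. A stretch before EDN1 is shown because EDN1 carries most of the ligand counts and several factors are known to act there. The stretch is the 250 bases before 12290361, the RefSeq start nearest to the GENCODE transcript, 2 bases upstream of it. They lie at chr6:12290111-12290360 on the plus strand (GRCh38.p14, RefSeq promoter table). Capitals mark every match, on either strand, to 5 motifs that were searched: TGANTCA for AP-1, GGAATG for TEAD, AGATAA for GATA factors, ACGTG for hypoxia-inducible factors and TATAAA for the TATA box.
EDN1 promoter window: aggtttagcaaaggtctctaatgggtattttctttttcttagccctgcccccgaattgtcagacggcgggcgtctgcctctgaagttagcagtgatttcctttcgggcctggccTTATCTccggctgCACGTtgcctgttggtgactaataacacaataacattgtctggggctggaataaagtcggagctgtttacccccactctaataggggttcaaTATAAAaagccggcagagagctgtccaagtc
A GATA match lay 136 to 131 bases before the start, a hypoxia-motif match 123 to 119 bases before it and a TATA match 31 to 26 bases before it. None of the matches overlap. Among 34943 windows of the same length in the table, 9.19% held the GATA letters, 18.5% the hypoxia letters and 10.8% the TATA letters, against 6.59% for AP-1 and 11.9% for TEAD. A match is a run of letters and not a shown binding site. Only the exact letters were searched, so runs that differ from them, such as tgactaa beside the AP-1 letters, are unmarked. The lack of an AP-1 or TEAD match in this window therefore does not show that such sites are absent. The EDN1 window before the start at 12290014, not shown, held a TEAD match 129 to 124 bases before that start. The window before the start at 12288019, also not shown, held hypoxia-motif matches 240 to 236 and 93 to 89 bases before that start.

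EDN2, the gene of endothelin-2, differed the other way from EDN1 but at a level where single libraries decide the value. Its row (ENSG00000127129, chromosome 1, 41478775 to 41484673, minus strand) held 4, 45 and 15 counts in the libraries labelled knockout and 2, 4 and 0 counts in those labelled WT. These were 0.205, 1.75 and 0.512 CPM in the libraries labelled knockout and 0.0759, 0.149 and 0 CPM in those labelled WT, so the groups did not overlap although the lowest library labelled knockout was close to the highest labelled WT. In counts those 2 libraries had 4 each, with an exact Poisson 95% interval of 1.09 to 10.2 that covers counting error only. Of the 64 EDN2 counts in the libraries labelled knockout, 70.3% came from replicate 2. The mean level was 0.822 CPM in the libraries labelled knockout and 0.0748 CPM in those labelled WT, 11-fold higher, but without replicate 2 of the libraries labelled knockout it was 0.358 CPM and 4.79-fold higher. EDN2 did not pass the filter and was not tested in the reported fit. It did pass when any of 4 single libraries was left out, each time only through replicates 2 and 3 of the libraries labelled knockout. Its log2 fold change was then 3.74 without replicate 1 of the libraries labelled knockout, and 3.31, 4.2 and 2.85 without WT replicates 1, 2 and 3. EDN2 was called higher each time. The filter let it in only by its high counts in the libraries labelled knockout, so these calls are no support for the difference. The authors' deposited table gives it a log2 fold change of 3.40.

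The share of EDN2 among the ligand counts is set by EDN1 as well as by EDN2, and its difference was not tested. EDN2 made up 3.96%, 22.5% and 10.3% of the ligand counts in the libraries labelled knockout, with exact binomial 95% intervals of 1.09 to 9.83%, 16.9 to 28.9% and 5.91 to 16.5%. In the libraries labelled WT it made up 0.227%, 0.581% and 0%, with intervals that reached no higher than 1.48%. These intervals cover counting error only, and that of replicate 1 of the libraries labelled knockout overlaps that of WT replicate 2. All ligands together came to 5.17, 7.78 and 4.95 CPM in the libraries labelled knockout, against 33.5, 25.6 and 28.1 CPM in those labelled WT, so the EDN2 counts were small beside the EDN1 difference.

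The EDN2 window is shown for comparison with that of EDN1, at chr1:41484684-41484933 on the minus strand (GRCh38.p14, RefSeq promoter table), and is marked in the same way.
EDN2 promoter window: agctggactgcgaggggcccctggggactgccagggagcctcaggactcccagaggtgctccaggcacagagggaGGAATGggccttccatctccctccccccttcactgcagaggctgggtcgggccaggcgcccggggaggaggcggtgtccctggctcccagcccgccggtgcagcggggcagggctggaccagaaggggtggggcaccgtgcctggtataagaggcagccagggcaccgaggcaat
It held 1 match, to the TEAD letters, 175 to 170 bases before the start. The TEAD letters were not particular to EDN2, because the EDN1 window before the start at 12290014 held them too. In all, 11 RefSeq windows were found for 5 of the 7 members, the exceptions being EDN3 and ECE2.

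EDN3, the gene of endothelin-3, a peptide needed for neural crest development (ENSG00000124205, chromosome 20), had 0 counts in each of the 3 libraries labelled knockout and in each of the 3 labelled WT. A count of 0 allows up to 3 counts by a one-sided 95% limit (3.69 counts by the two-sided exact Poisson interval), and 3 counts are 0.102 to 0.154 CPM in the libraries labelled knockout and 0.111 to 0.134 CPM in those labelled WT.

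Both receptors were at or near the limit of detection. EDNRA, endothelin receptor A, which binds endothelin-1 and endothelin-2 more tightly than endothelin-3 (ENSG00000151617, chromosome 4), had 0, 0 and 0 counts in the libraries labelled knockout and 0, 8 and 2 counts in those labelled WT. Of the 10 counts labelled WT, 8 came from replicate 2, and replicate 1 held none, so the groups overlapped. EDNRB, endothelin receptor B, which binds the 3 peptides about equally (ENSG00000136160, chromosome 13), had 3, 4 and 3 counts in the libraries labelled knockout and 1, 8 and 2 counts in those labelled WT. Its mean level was 0.137 ± 0.0301 CPM in the libraries labelled knockout and 0.142 ± 0.137 CPM in those labelled WT (SD, n = 3 each). Neither receptor passed the filter, and at this depth a difference between the groups was not detectable for EDNRB. The 2 receptors together took 3 to 4 counts per library in the libraries labelled knockout and 1 to 16 in those labelled WT.

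ECE1, the enzyme that cuts big endothelin to the mature peptide (ENSG00000117298, chromosome 1, 21217247 to 21345572, minus strand), was the most abundant member and nearly level between the groups. It had 6960, 9175 and 10449 counts in the libraries labelled knockout and 9734, 10770 and 8858 counts in those labelled WT. Scaled for depth, the libraries labelled knockout were at 356.2, 356.9 and 356.8 CPM and those labelled WT at 369.4, 400.2 and 397.0 CPM. The groups did not overlap, but the lowest library labelled WT was close to the libraries labelled knockout. The means were 356.6 ± 0.404 CPM in the libraries labelled knockout and 388.9 ± 16.96 CPM in those labelled WT (SD, n = 3 each). That is a change of -8.29% in the libraries labelled knockout, and the log2 fold change was -0.12 ± 0.041 (SE), with a 95% interval of -0.21 to -0.041. The coefficient of variation was 0.113% in the libraries labelled knockout, below the counting error of 0.978 to 1.20% that their counts imply, and 4.36% in those labelled WT.

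The small ECE1 difference depended on the processing, and the EDN1 difference did not. The log2 fold change of ECE1 was -0.069 with upper-quartile factors and 0.0018 with cyclic loess, a scaling that varies with the level of a gene, and it was past the threshold with neither. It also lost the threshold without WT replicate 2 (-0.11) and without WT replicate 3 (-0.11). EDN1 kept a log2 fold change of -2.63 to -2.38 when each library was left out. GENCODE v29 gives ECE1 14 transcripts from different starts, and a row for the whole gene does not tell them apart. Antisense genes overlapping ECE1 held at most 6 counts in any library.

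**Figure D3:**
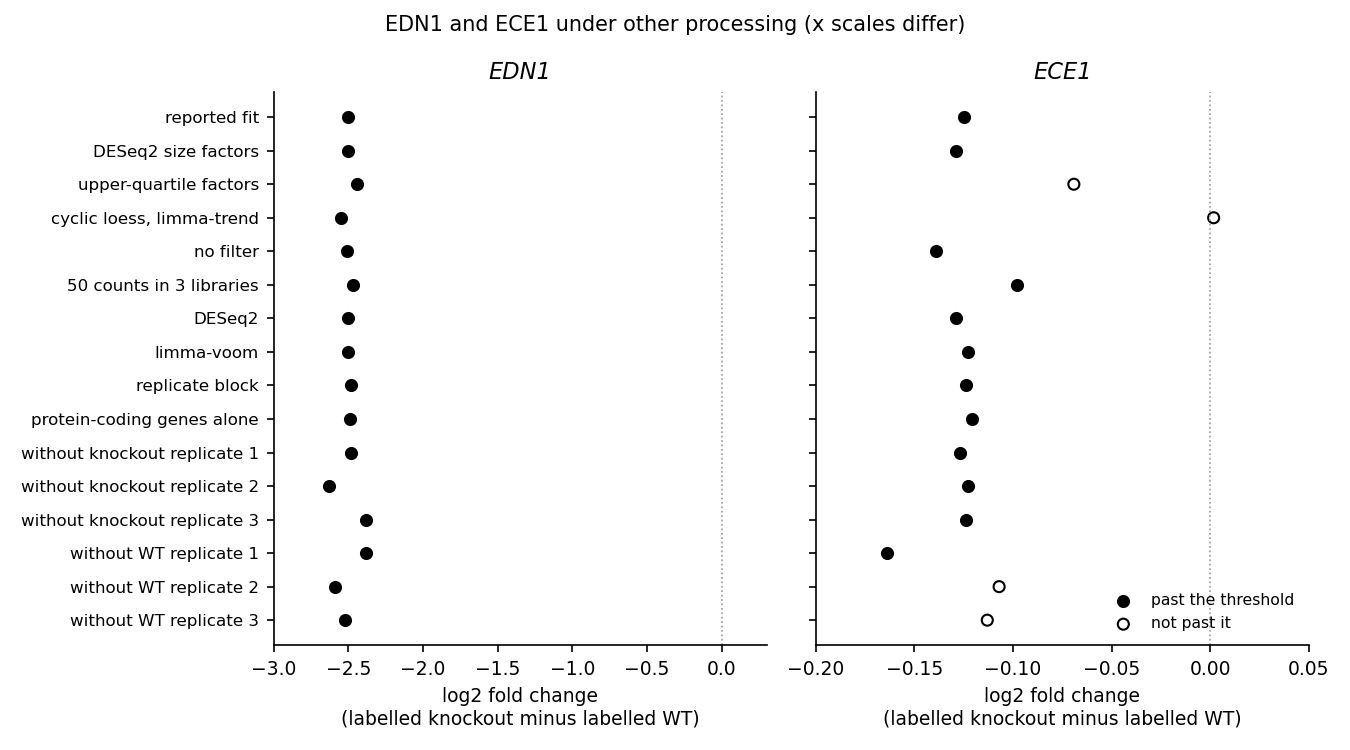
Log2 fold change of EDN1 (left) and ECE1 (right) in the reported fit and under other processing, libraries labelled knockout minus those labelled WT, on x scales that differ. Filled points were past the adjusted p threshold of 0.05 and open points were not. EDN1 stays between -2.63 and -2.38, while ECE1 runs from -0.16 to 0.0018 and is open in 4 settings.

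ECE2, a related converting enzyme best known from neural tissue (ENSG00000145194, chromosome 3), had 0, 1 and 0 counts in the libraries labelled knockout and 2, 0 and 0 counts in those labelled WT. The read-through gene EEF1AKMT4-ECE2, which covers the same exons, had 0 counts in all 6 libraries, so adding it changed no value. EDNRA and ECE2 were not tested in the reported fit. In the fit with no filter, EDNRA passed the threshold on its 10 counts and ECE2 and EDNRB did not.

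Counts per kilobase of gene allow levels to be set side by side between genes. On that scale the order in the libraries labelled knockout was ECE1 (48.6 ± 0.0551 CPM per kilobase), EDN1 (2.53 ± 0.399), EDN2 (0.502 ± 0.499), EDNRB (0.0245 ± 0.00537) and ECE2 (0.0027), with EDNRA and EDN3 at 0. In the libraries labelled WT it was ECE1 (53.0 ± 2.31), EDN1 (14.3 ± 2.0), EDN2 (0.0457 ± 0.0454), EDNRA (0.0304 ± 0.0360), EDNRB (0.0253 ± 0.0245) and ECE2 (0.0053), with EDN3 at 0 (SD, n = 3 each). ECE1, EDN1 and EDN2 kept this order in every library labelled knockout without overlap. In the libraries labelled WT the order below EDN1 was within the spread of the libraries. Per kilobase, ECE1 stood 19.9, 16.4 and 22.3 times above EDN1 in the libraries labelled knockout and 3.06, 4.36 and 3.92 times above it in those labelled WT.

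The protein-coding genes whose pattern over the 6 libraries lay nearest to EDN1 were found by the root mean square distance of log2 CPM, centred on each gene's mean, among 13428 genes. IL1RL1, the receptor of interleukin-33, was nearest (distance 0.144). It was followed by the metallothionein MT1E (0.178), ANKRD1, a cardiac ankyrin repeat protein and common readout of the coactivator YAP (0.192), the aldo-keto reductase AKR1B10 (0.215) and the transcription factor POU2F2 (0.283). Their log2 fold changes were -2.25, -2.33, -2.24, -2.43 and -2.17, so a like size of difference sets the order as much as the pattern within groups does. ANKRD1 was at 4.81 CPM in the libraries labelled knockout and 22.8 CPM in those labelled WT. IL1RL1 overlaps IL18R1, and MT1E and AKR1B10 have near-identical relatives, which makes their counts uncertain. The genes nearest to ECE1 were SCAP, ZDHHC8, SQSTM1, RCC1L and UBA1, with log2 fold changes of -0.12, -0.12, -0.098, -0.13 and -0.16. SQSTM1 overlaps MGAT4B and was at 0.025 with cyclic loess, and like ECE1 none of the 5 was past the threshold with that scaling.

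**Figure D4:**
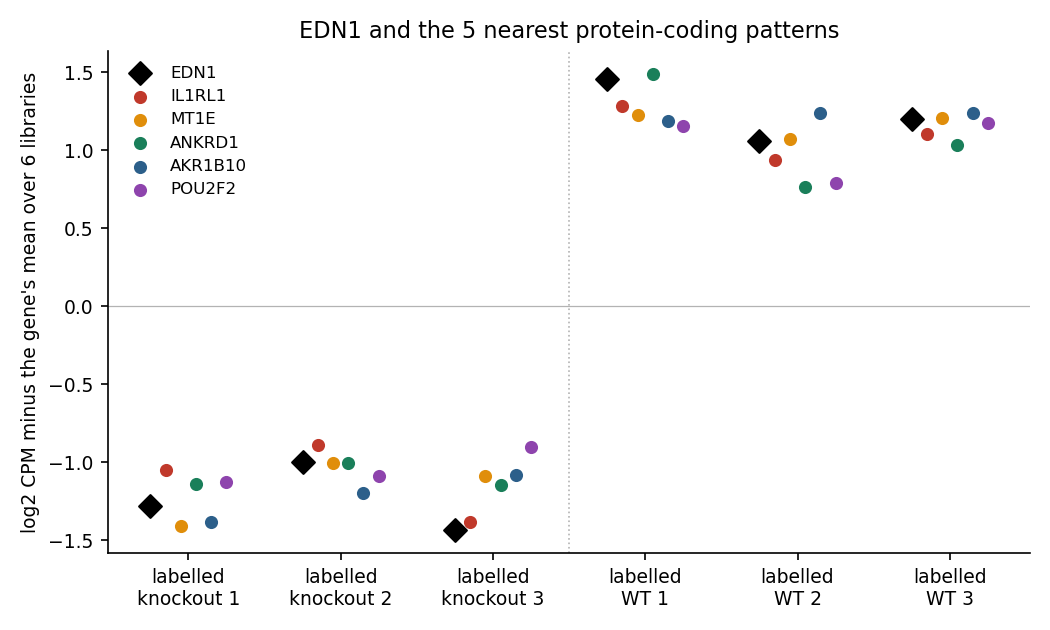
Log2 CPM of EDN1 (black diamonds) and of its 5 nearest protein-coding genes in each library, each centred on its own mean over the 6 libraries, with libraries labelled knockout on the left and those labelled WT on the right. All 6 genes lie below their mean in the libraries labelled knockout and above it in those labelled WT.

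Genes around the system were read from 5 lists, which were drawn up with earlier results of these data known. Enzymes that process or clear endothelins went both ways. Of 12 listed, 9 were tested, and 4 rose and 2 fell (4 and 1 with upper-quartile factors), with a median log2 fold change of 0.04 and 66.7% called, against 0.0035 and 52.6% for all genes tested. FURIN, which makes big endothelin and is named after its values were seen, had a log2 fold change of 0.04 that did not pass, at 160.2 ± 4.27 CPM in the libraries labelled knockout and 155.4 ± 4.28 CPM in those labelled WT. Neprilysin, MME, a membrane peptidase that breaks down endothelins, rose (0.49 ± 0.066, SE, edgeR adjusted p = 1.12e-06), to 36.2 ± 1.05 CPM in the libraries labelled knockout against 25.7 ± 1.09 CPM in those labelled WT. Its relative MMEL1 rose (1.19), but only at 1.42 CPM in the libraries labelled knockout against 0.626 CPM in those labelled WT, and it overlaps the far more abundant PRXL2B. The proprotein convertase PCSK5 rose (0.35) and the matrix protease MMP2, which can cut big endothelin-1, fell (-0.32). The edgeR adjusted p of PCSK5 was 0.00949, and its call was lost without replicate 2 of the libraries labelled knockout (0.0591) and with cyclic loess (0.0681), within a range of 0.00337 to 0.0681 over the alternatives. The adjusted p of MMP2 was 0.0224, with a range of 0.00379 to 0.0848, and its call was lost without replicate 2 (0.0611) or replicate 3 (0.073) of the libraries labelled knockout, without WT replicate 1 (0.0848) and with upper-quartile factors (0.0577).

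Of 17 G proteins, phospholipases and calcium release channels through which endothelin receptors signal, 16 were tested, and 3 rose and 4 fell. The counts were 4 and 3 with upper-quartile factors and 5 and 3 with cyclic loess. The median of -0.03 changed sign with both (0.028 and 0.052). The share called was 43.8%, against 52.6% of all genes tested. Phospholipase PLCB2 fell (-0.79) at 1.20 CPM in the libraries labelled knockout against 2.11 CPM in those labelled WT. PLCB4 rose (0.70) at 3.31 CPM in the libraries labelled knockout against 2.04 CPM in those labelled WT, a call lost without replicate 2 of the libraries labelled knockout (adjusted p = 0.122), without WT replicate 2 (0.0672) and with cyclic loess (0.0764), within a range of 0.00269 to 0.122. The calcium channel ITPR2 fell (-0.49 ± 0.071, SE) and the abundant stimulatory subunit GNAS rose (0.26 ± 0.038).

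Regulators that switch receptors off went both ways. Of 10 listed, 9 were tested, and 2 rose and 5 fell, with a median of -0.39. The share called was 77.8%, against 52.6% of all genes tested. Beta-arrestin-1, ARRB1, which takes activated receptors out of signalling, rose (1.33 ± 0.13, SE, edgeR adjusted p = 5.05e-09), to 16.4 ± 0.791 CPM in the libraries labelled knockout against 6.51 ± 1.63 CPM in those labelled WT. Its relative ARRB2, named after its values were seen, fell (-0.39), to 20.4 CPM in the libraries labelled knockout against 26.6 CPM in those labelled WT. RGS2, which shortens signalling by the Gq subunit, fell (-0.95 ± 0.067, adjusted p = 4.26e-11), to 34.2 ± 2.02 CPM in the libraries labelled knockout against 66.1 ± 6.37 CPM in those labelled WT. The receptor kinases GRK3 (-0.61) and GRK5 (-0.46) fell. These genes serve many receptors, and the endothelin receptors themselves had few counts.

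Transcription factors reported to act on EDN1 went both ways. All 21 listed were tested, and 9 rose and 7 fell (10 and 5 with upper-quartile factors), with a median of 0.05. The share called was 76.2%, against 52.6% of all genes tested. The AP-1 subunits FOSL1 and JUN fell. FOSL1 was at 72.9 ± 2.20 CPM in the libraries labelled knockout and 190.01 ± 10.3 CPM in those labelled WT (-1.38 ± 0.048, SE, edgeR adjusted p = 1.87e-16), and JUN at 55.7 ± 1.22 CPM in the libraries labelled knockout and 99.7 ± 1.06 CPM in those labelled WT (-0.84 ± 0.047, adjusted p = 6.79e-13). GATA2 rose (0.80 ± 0.16), although GATA2-AS1 overlaps it and reads cannot be split without strand, and KLF2, which lowers EDN1 in blood vessel cells, rose (0.93 ± 0.17) at 5.04 CPM in the libraries labelled knockout against 2.64 CPM in those labelled WT. The part of any of these factors in the EDN1 difference was not tested.

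**Figure D5:**
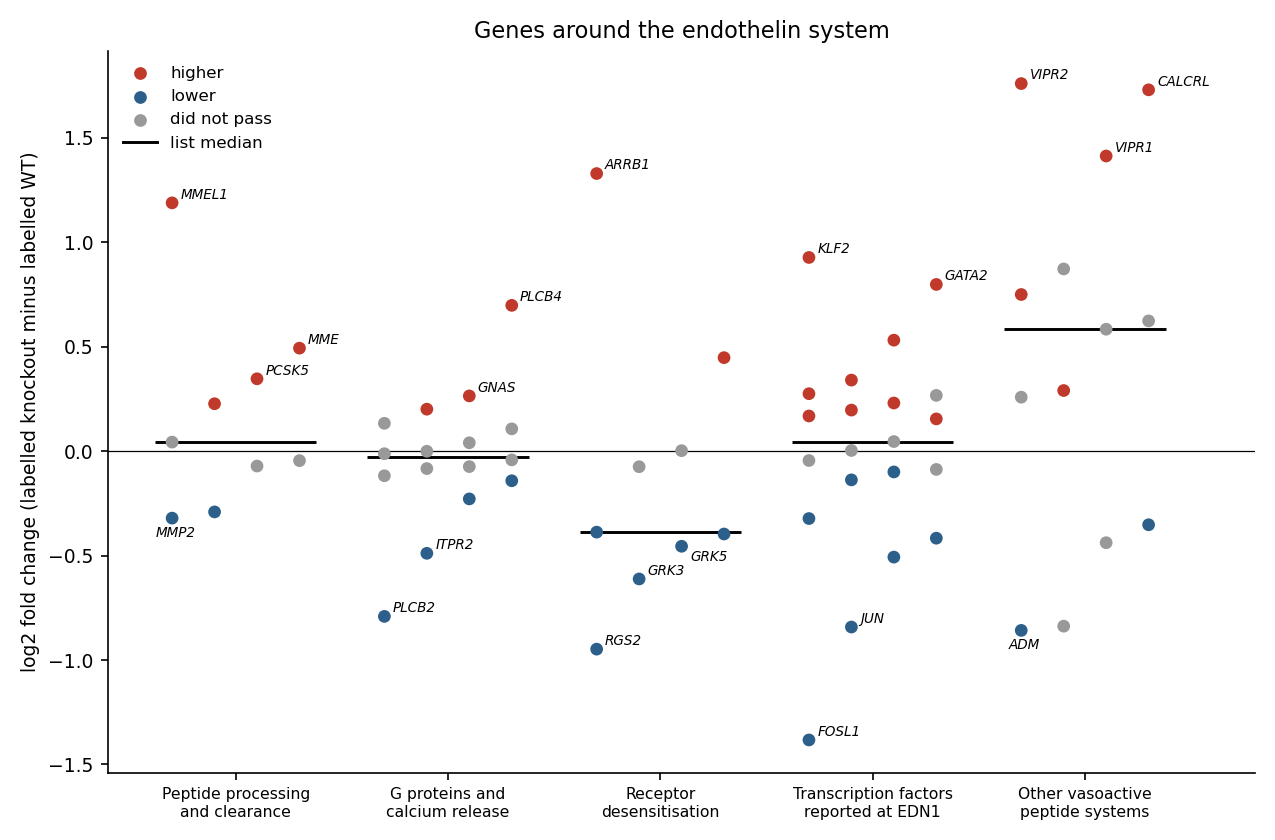
Log2 fold change (libraries labelled knockout minus those labelled WT) of every tested gene in 5 lists around the endothelin system, with genes that passed the test in red (higher) or blue (lower), genes that did not pass in grey, and the list median as a black bar. ARRB1, at 1.33, and RGS2, at -0.95, are the extremes of the desensitisation list, and FOSL1, at -1.38, is the lowest gene of all 5 lists.

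Most genes of other vasoactive peptide systems did not reach the filter. Of 33 listed genes 13 were tested, and 5 rose and 2 fell (5 and 3 with DESeq2 size factors, 5 and 4 with cyclic loess), with a median of 0.58 (0.305 with cyclic loess). The share called was 53.8%, against 52.6% of all genes tested. The receptors VIPR2 (1.76 ± 0.36, SE), CALCRL (1.73 ± 0.38) and VIPR1 (1.41 ± 0.28) rose at low levels, and VIPR2 was at 2.37 without WT replicate 3. CALCRL was at 1.22 CPM in the libraries labelled knockout and 0.363 CPM in those labelled WT. VIPR2 overlaps LINC00689 and VIPR1 overlaps VIPR1-AS1. Adrenomedullin, ADM, a vasodilator peptide, fell, in the direction of the EDN1 difference (-0.86 ± 0.14, SE, edgeR adjusted p = 1.97e-05), to 4.27 ± 0.241 CPM in the libraries labelled knockout against 7.77 ± 1.30 CPM in those labelled WT. Its relative ADM2, named after its values were seen, rose, against that direction (0.75 ± 0.11, SE, edgeR adjusted p = 4.29e-06).

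Endothelial cells are a known source of EDN1, and of 7 endothelial markers 4 were tested. The summed level of the 7 was 27.1 to 31.4 CPM in the libraries labelled knockout and 14.8 to 19.9 CPM in those labelled WT. The sum was higher in every library labelled knockout than in any labelled WT. All 4 tested markers were called higher in the libraries labelled knockout, as were 26.7% of all genes tested. PECAM1 was at 17.8 CPM there and 13.9 CPM in those labelled WT, and CLDN5 at 7.67 and 2.025 CPM. CDH5 (2.10 and 0.721 CPM) and VWF (0.720 and 0.264 CPM) were at low levels, and VWF passed the filter through the libraries labelled knockout alone. Of the untested markers, KDR had at most 1 count, TEK at most 3 and ERG at most 20 in any library, and their groups overlapped. Of 10 markers of fibroblasts, stellate cells and smooth muscle, which carry EDNRA in tissue, 4 were tested, with a summed level of 47.8 to 53.3 CPM in the libraries labelled knockout and 35.3 to 37.7 CPM in those labelled WT, mostly from COL1A1. Markers of melanocytes and neural crest summed to 17.1 to 18.1 CPM in the libraries labelled knockout and 22.8 to 23.5 CPM in those labelled WT, with SOX10 at most at 2 counts. MITF set the direction of that sum, at 13.4 CPM in the libraries labelled knockout and 20.5 CPM in those labelled WT, while PMEL was higher, at 3.85 CPM in the libraries labelled knockout and 2.26 CPM in those labelled WT. Blood cell markers summed to 3.38 to 4.61 CPM in the libraries labelled knockout and 2.78 to 2.86 CPM in those labelled WT, and acinar and islet markers to at most 0.134 CPM in any library. These are levels in bulk RNA, and the part of the epithelial, endothelial and other marker differences in the EDN1 difference was not tested.

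The nearest tested genes to EDN1 on chromosome 6 did not share its size of difference. HIVEP1, 125364 bases away, fell (-0.42 ± 0.087, SE, edgeR adjusted p = 0.000264), RPL15P3 fell (-0.15), and PHACTR1 and ADTRP did not pass (0.22 and 0.16).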

How the data were processed

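Libraries were made with the NEBNext Ultra RNA kit, per the labels' protocols. That kit does not mark strand. The submitters' processing notes name fastp, HISAT2, STAR and DESeq with GRCh38 and hg38, without versions or roles, and no source used here names the counting tool. The deposited table holds raw read counts per gene. A second table by the authors repeats those counts for 29015 genes. In it, per the file headers and values, the authors give normalised signal columns (counts over 1 factor per library), FPKM columns, log2 fold changes and p-values. Of these only the authors' log2 fold changes were quoted, and the signal, FPKM and p-value columns were not used.

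The count test was that of edgeR 4.0.16, run in R 4.3.3 (quasi-likelihood, two-sided, TMM factors, group as the only term). filterByExpr (minimum count 10, minimum total 15) left 16655 genes, and Benjamini-Hochberg adjustment ran over all of them, with a threshold of 0.05. Standard errors come from the F statistic. CPM use TMM-scaled library sizes. Genes named from the lists are up to 4 with the largest changes past the threshold in each list, beside the members, MUC16 and the 5 protein-coding genes nearest in pattern to EDN1 and to ECE1. FURIN, ARRB2, FOS and ADM2 fall outside that rule and were named after their values were seen. Members and lists were chosen with earlier results of these data known, and motifs after the files were seen. A list of downstream signalling genes is not reported here. RGS5 stands on 2 rows, of which the one with that current symbol was used. Other settings tried were upper-quartile factors, DESeq2 size factors, cyclic loess with limma-trend, no filter, at least 50 counts in at least 3 libraries, DESeq2 1.42.0, limma-voom (3.58.1), a replicate block, protein-coding genes alone, a threshold of 0.01 and leaving out each library. The edgeR step was tested on simulated data. No pair of libraries within a group was a duplicate (chi-square per degree of freedom 2.40 to 6.20).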

Additional observations from a re-analysis of the deposited data

How the results depend on the processing

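EDN1 kept its direction and its side of the threshold under every alternative run. The number of members called was 2 in the reported fit, 1 with upper-quartile factors, cyclic loess or a threshold of 0.01, and 4 with no filter, which added EDN2 and EDNRA. It was 2 to 3 when each library was left out. EDN2 passed the filter and was called higher in 4 of these 6 fits (without knockout replicate 1 or any 1 of the WT replicates). It entered each of them through knockout replicates 2 and 3 alone, so these calls are no support for its difference. ECE1 was at -0.069 with upper-quartile factors, 0.0018 with cyclic loess (reversed), -0.12 at a threshold of 0.01 and -0.16 to -0.11 when each library was left out. The G protein list had 3 called genes at a threshold of 0.01, against 7. Across all genes 8759 were called, and 6935 to 8766 under the alternatives. Among 35 other genes picked by the naming rule, 45 of 556 values lost the threshold, over 9 genes, and 1 reversed, SQSTM1 at 0.025 with cyclic loess; the cause was not tested. Libraries of equal replicate number showed no sign of pairing, with deviations from their group means that correlated at 0.0116, 0.0205 and -0.024. With 3 libraries in each group this check cannot exclude a pairing. A replicate block left 8442 genes called, EDN1 was at -2.48 and ECE1 at -0.12. Depth limits EDN2, EDN3, EDNRA, EDNRB and ECE2, with at most 45 counts in any library.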
